A study of Mus musculus with 2 samples.

Results

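The AP-1 genes of the FOS and JUN families were compared between 2 sublines of SV40 MES13, a mouse kidney line that the labels describe as mesangial. Members were the rows of the deposited table of all genes whose symbol was Fos, Fosb, Fosl1, Fosl2, Jun, Junb or Jund, 7 genes of 54713 rows, and each symbol was held by 1 row. In the Lv_AI662270 subline a lentivirus had delivered AI662270, a long noncoding RNA, and the Lv_NC subline had received a control virus. Both had been selected with 0.5 mg/ml puromycin, kept at 0.25 mg/ml puromycin in DMEM with 10% fetal serum, and are labelled as otherwise untreated. The labels do not say whether each subline is a clone or a pool, nor how long after the last medium change the RNA was taken. There was 1 library per group, so nothing below could be checked on replicates, and every comparison is between these 2 libraries.

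AP-1 is a dimeric transcription factor of the basic leucine zipper (bZIP) class. FOS proteins do not pair with themselves and bind DNA together with a JUN protein, whereas JUN proteins can also pair among themselves. Serum, growth factors and stress switch on Fos, Fosb, Jun and Junb within minutes and the transcripts disappear again soon after, while Fosl1 (FRA-1) and Fosl2 (FRA-2) are induced later and Jund is expressed more steadily. The first 4 are called transient and the other 3 sustained below, from that general knowledge. In mesangial cells AP-1 is known as an early relay of growth factor and vasoactive signals.

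The promoters of the 4 transient members are shown because these genes were all lower in the Lv_AI662270 library, and because each has its RefSeq start site within 50 bases of the start of the gene in the deposited table. Each sequence runs 5′ to 3′ in the sense of transcription from 250 bases before to 50 bases after the start site, in the RefSeq table of build GRCm38.p6. Capitals mark matches, on either strand, to TGANTCA (the AP-1 site), TGACNTCA (the longer site of AP-1 and CREB family dimers), TGACG (a short CREB-type site), the CArG box of serum response factor, or TATAAA.
Fos promoter, chr12:85473640-85473939, plus strand: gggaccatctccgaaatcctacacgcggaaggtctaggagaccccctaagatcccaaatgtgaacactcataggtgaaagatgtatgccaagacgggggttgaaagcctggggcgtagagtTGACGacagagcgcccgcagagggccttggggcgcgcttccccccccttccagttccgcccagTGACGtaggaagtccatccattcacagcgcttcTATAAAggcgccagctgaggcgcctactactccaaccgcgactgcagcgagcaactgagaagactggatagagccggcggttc
Fosb promoter, chr7:19309996-19310295, minus strand: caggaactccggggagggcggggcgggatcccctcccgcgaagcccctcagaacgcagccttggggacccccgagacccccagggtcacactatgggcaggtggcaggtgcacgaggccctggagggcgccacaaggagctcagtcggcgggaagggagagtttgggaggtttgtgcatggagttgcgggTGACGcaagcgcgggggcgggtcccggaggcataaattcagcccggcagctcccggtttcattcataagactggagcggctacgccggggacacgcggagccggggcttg
Jun promoter, chr4:95052173-95052472, minus strand: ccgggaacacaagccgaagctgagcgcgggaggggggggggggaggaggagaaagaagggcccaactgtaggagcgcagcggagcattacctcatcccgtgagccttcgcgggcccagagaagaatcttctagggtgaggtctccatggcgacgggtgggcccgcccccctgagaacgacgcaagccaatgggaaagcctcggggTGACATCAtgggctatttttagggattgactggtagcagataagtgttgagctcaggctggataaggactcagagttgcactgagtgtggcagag
Junb promoter, chr8:84978699-84978998, minus strand: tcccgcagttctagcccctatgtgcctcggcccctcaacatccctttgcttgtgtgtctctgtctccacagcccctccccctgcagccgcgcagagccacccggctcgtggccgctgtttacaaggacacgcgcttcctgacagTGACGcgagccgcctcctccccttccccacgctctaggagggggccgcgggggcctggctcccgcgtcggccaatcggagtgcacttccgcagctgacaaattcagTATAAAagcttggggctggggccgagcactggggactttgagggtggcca
The Fos window held TGACG at 2 places, at -129 to -125 and at -66 to -62 from the start site, and TATAAA at -33 to -28. The windows of Fosb and Junb each held 1 TGACG, at -60 to -56 and at -106 to -102. Jun had none, but held TGACATCA, a match to TGACNTCA, at -45 to -38. Junb held TATAAA at 1 to 6, and its RefSeq start lies 30 bases before the deposited gene start. None of the 4 windows held TGANTCA or a CArG box, which says only that these letters are not in these 300 bases. Of 32851 promoter windows of that length in the same table, 20.8% held TGACG, 8.83% TGACNTCA, 7.81% TGANTCA, 1.63% a CArG box and 13.6% TATAAA. The RefSeq start sites of Fosl2 and Jund lie 671 bases after and 1210 bases before the deposited gene start, and the windows around them are not shown. For Fosl1, a sustained member that was also lower by more than 2-fold, no promoter window was available.

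Unstable messages often carry the pentamer ATTTA in the 3′ untranslated region, where decay factors bind. In the longest annotated 3′ region of each member in GENCODE M21 (build mm10, sense strand), Fos held 4 ATTTA in 815 bases, or 4.91 per kilobase. Junb held 2 in 485 bases (4.12 per kilobase) and Jun 4 in 1233 bases (3.24 per kilobase). Fosl2 held 8, the highest number of the family, but in 4653 bases (1.72 per kilobase). Jund, Fosl1 and Fosb held 1 each, at 1.88, 1.57 and 0.434 per kilobase. Over 11792 measured genes with such a region the median was 1.32 per kilobase. Of these genes, 93.6%, 90.2% and 82.9% had fewer per kilobase than Fos, Junb and Jun. By number per region the median was 2. Fewer ATTTA were held by 69.8% of these genes than by Fos or Jun, and by 48.5% than by Junb. For Fosl2 that share was 88.9%, and for Fosb, Fosl1 and Jund 29.4%. Fos, Junb and Jun, all transient, therefore stood above the sustained members in density, and Fosb, also transient, stood below them. By number, the sustained Fosl2 stood highest. The 30-base stretches with 2 ATTTA, in capitals, are shown for the 3 members that have one.
Fos 3′ untranslated site, chr12:85477090-85477119, plus strand: aacgtttttattgtgttttcaATTTATTTA
Jun 3′ untranslated site, chr4:95049210-95049239, minus strand: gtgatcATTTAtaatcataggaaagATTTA
Fosl2 3′ untranslated site, chr5:32156858-32156887, plus strand: agaagaaattgacATTTAttttattATTTA

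The Lv_AI662270 library held 15062482 counts over 21262 genes, and the Lv_NC library 15727023 over 20259 genes. Levels are CPM (counts scaled to library size, here by TMM), and genes averaging 1 CPM or more across the libraries were taken as measured. Ratios are Lv_AI662270 over Lv_NC, and ranges in brackets are 95% exact counting intervals, which do not cover differences between cultures. AI662270 itself, on chromosome 11, had 241 counts in the Lv_AI662270 library and 0 in the Lv_NC library, where a count of 0 allows up to 3 counts, or 0.197 CPM, as a one-sided 95% limit. The mesangial label was checked on 8 markers, whose summed level per length was 11.6 CPM per kilobase in Lv_AI662270 and 4.62 in Lv_NC, with Itga8 and Thy1 at 0 in both. The 5 epithelial markers Epcam, Cdh1, Krt8, Krt18 and Cdh16 summed to 436 CPM per kilobase in Lv_AI662270 and 870.0 in Lv_NC, so epithelial markers were the more abundant in both libraries, against the label. By the 2-fold size rule explained below, 2 of the 5 epithelial markers, Cdh1 and Krt18, were lower in Lv_AI662270. Of the 5 mesangial markers measured, 1 was higher (Acta2) and 2 were lower (Gata3 and Serpine2). Pdgfrb and Des did not pass the rule. Pdgfrb had 338 counts in Lv_AI662270 and 185 in Lv_NC, and Des 58 in Lv_AI662270 and 26 in Lv_NC. The median log2 ratio of these 5 was 0.81. The macrophage marker Csf1r was lower. Among all measured genes 5.72% were lower and 5.59% higher. Of the podocyte markers Podxl was lower, while Synpo, which did not pass the rule, had 614 counts in Lv_AI662270 and 394 in Lv_NC, and Wt1, below the measured level, had 22 in Lv_AI662270 and 0 in Lv_NC. On the same scale, 5 podocyte markers summed to 12.1 in Lv_AI662270 and 25.1 in Lv_NC with Nphs1 at 0, and 5 macrophage markers to 6.20 in Lv_AI662270 and 10.9 in Lv_NC with Adgre1 at 0. The 5 endothelial markers summed to 0.185 in Lv_AI662270 and 0.0969 in Lv_NC, with Emcn and Tie1 at 0 in both. In bulk RNA, fewer cells of a type and less RNA per cell cannot be told apart, and the part of these markers in the values below was not tested.

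All 7 members were measured, and all had fewer counts in the Lv_AI662270 library. A size rule asked for a 2-fold difference (log2 ratio beyond 1 or -1) whose counting interval left out a ratio of 1. By it 5 members were lower and 0 higher, against 5.72% lower among all 13268 measured genes and 5.59% higher. The median log2 ratio of the members was -1.81, against -0.02 over all measured genes. Summed over the family, 8185 counts in Lv_AI662270 stood against 21583 in Lv_NC, a level 2.70-fold lower (2.63 to 2.77). The summed FOS genes were 3.49-fold lower (3.34 to 3.65) and the summed JUN genes 2.33-fold lower (2.26 to 2.40). All 4 transient members passed the rule, and of the 3 sustained members Fosl1 passed it. The member just inside the rule was Junb and the one just outside it Fosl2. At 1.5-fold 6 members were lower and 0 higher, against 14.3% and 12.9% of all measured genes, and at 3-fold 4 were lower and 0 higher, against 1.97% and 1.86%.

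**Figure D1:**
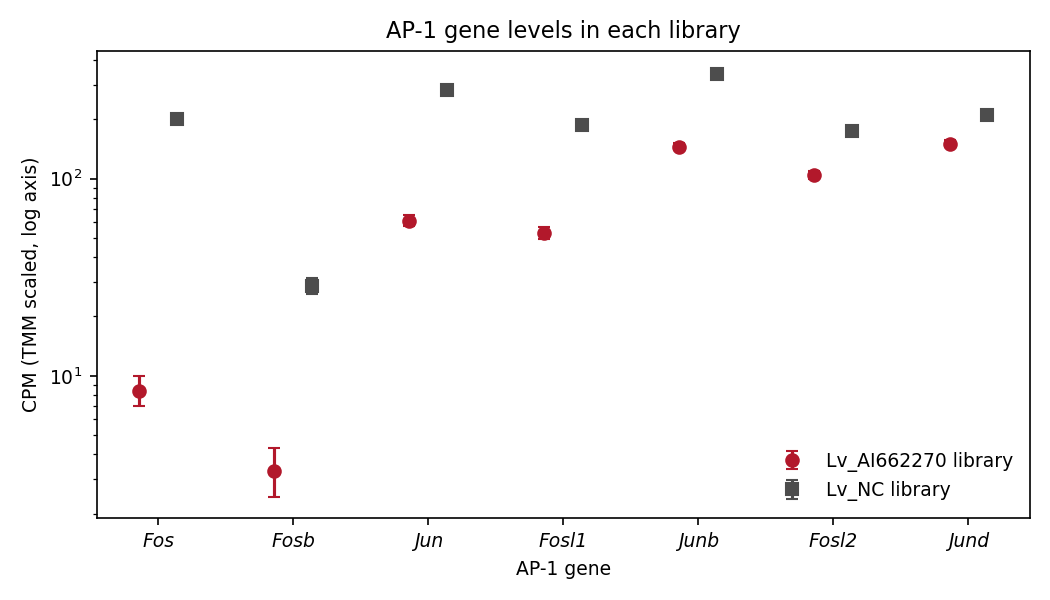
Level of each AP-1 gene in CPM on a log axis, in the Lv_AI662270 library (red circles) and the Lv_NC library (grey squares), 1 library each, with 95% exact counting intervals. The red circle lies below the grey square for every gene, with the widest gap for Fos, at 8.41 CPM in Lv_AI662270 and 199.9 CPM in Lv_NC.

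Among the FOS genes, Fos, which encodes the prototypical partner of JUN (ENSMUSG00000021250, chromosome 12 from 85473890 to 85477273, plus strand), had 131 counts in Lv_AI662270 and 3039 in Lv_NC. The levels are 8.41 CPM (7.03 to 9.98) in Lv_AI662270 and 199.9 CPM (193 to 207) in Lv_NC, a level 23.8-fold lower (19.96 to 28.5). Per kilobase the level was 3.57 CPM in Lv_AI662270 and 85.0 CPM in Lv_NC, where it was close to that of Jun at 88.1 CPM. Its log2 ratio of -4.49 was the 4th lowest of all measured genes. The 477 measured genes of chromosome 12, where Fos lies, had a median of -0.35, while the chromosomes of the other members had medians between -0.01 and 0.11. The nearest measured gene before Fos, Tmed10, had 2421 counts in Lv_AI662270 and 3539 in Lv_NC, a log2 ratio of -0.58.

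Fosb, a relative of Fos whose short splice form makes an unusually stable protein (ENSMUSG00000003545, chromosome 7 from 19302696 to 19310051, minus strand), had 51 counts in Lv_AI662270 and 436 in Lv_NC. That is 3.27 CPM (2.44 to 4.30) in Lv_AI662270 and 28.7 CPM (26.0 to 31.5) in Lv_NC, and per kilobase it was the lowest member in both libraries, at 0.524 CPM in Lv_AI662270 and 4.59 CPM in Lv_NC. Counts per gene do not separate its splice forms. The level was 8.76-fold lower (6.54 to 11.95), on a log scale the widest interval of the family because it rests on the fewest counts. Its neighbour Rtn2 was also lower by the rule, with 33 counts in Lv_AI662270 and 77 in Lv_NC. Of the 14 nearest measured genes on either side of the 7 members, 1 was lower and 1 higher. That is near the 5.72% lower and 5.59% higher among all measured genes. The higher one, Fggy beside Jun, had 53 counts in Lv_AI662270 and 18 in Lv_NC.

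Fosl1 encodes FRA-1, which lacks the transactivation domain of FOS and is itself activated by AP-1 (ENSMUSG00000024912, chromosome 19 from 5447703 to 5455945, plus strand). It had 827 counts in Lv_AI662270 and 2846 in Lv_NC, or 53.1 CPM (49.5 to 56.8) in Lv_AI662270 and 187 CPM (180 to 194) in Lv_NC. The level was 3.53-fold lower (3.26 to 3.82), so a member grouped as sustained differed more than the transient Junb. Fosl2, which encodes FRA-2 (ENSMUSG00000029135, chromosome 5 from 32135801 to 32157842, plus strand), had 1622 counts in Lv_AI662270 and 2639 in Lv_NC. At 104 CPM (99.1 to 109) in Lv_AI662270 and 174 CPM (167 to 180) in Lv_NC, its ratio was 0.60 (0.56 to 0.64) and its log2 ratio -0.73, which did not pass the size rule. Per kilobase it was at 10.8 CPM in Lv_AI662270 and 17.9 CPM in Lv_NC, above Fos in Lv_AI662270 and below it in Lv_NC.

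Among the JUN genes, Jun, the founding JUN subunit and an activator of its own promoter (ENSMUSG00000052684, chromosome 4 from 95049034 to 95052222, minus strand), had 955 counts in Lv_AI662270 and 4272 in Lv_NC. In CPM this is 61.3 (57.5 to 65.3) in Lv_AI662270 and 281 (273 to 290) in Lv_NC, a level 4.58-fold lower (4.27 to 4.92). Its antisense gene Junos had 6 counts in Lv_AI662270 and 4 in Lv_NC. Junb, whose product opposes JUN on some targets and replaces it on others (ENSMUSG00000052837, chromosome 8 from 84974484 to 84978718, minus strand), had 2261 counts in Lv_AI662270 and 5146 in Lv_NC. It was at 145 CPM (139 to 151) in Lv_AI662270 and 338 CPM (329 to 348) in Lv_NC, a level 2.33-fold lower (2.22 to 2.45). Junb overlaps Prdx2 on the opposite strand, which had 3517 counts in Lv_AI662270 and 2714 in Lv_NC. Whether reads were counted by strand is not stated, so the value of Junb is uncertain where the genes overlap. Jund, the steady JUN subunit (ENSMUSG00000071076, chromosome 8 from 70698949 to 70700616, plus strand), had 2338 counts in Lv_AI662270 and 3205 in Lv_NC. At 150.1 CPM (144 to 156) in Lv_AI662270 and 211 CPM (204 to 218) in Lv_NC, its ratio of 0.71 (0.67 to 0.75) was the one nearest to 1 in the family and did not pass the rule.

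**Figure D2:**
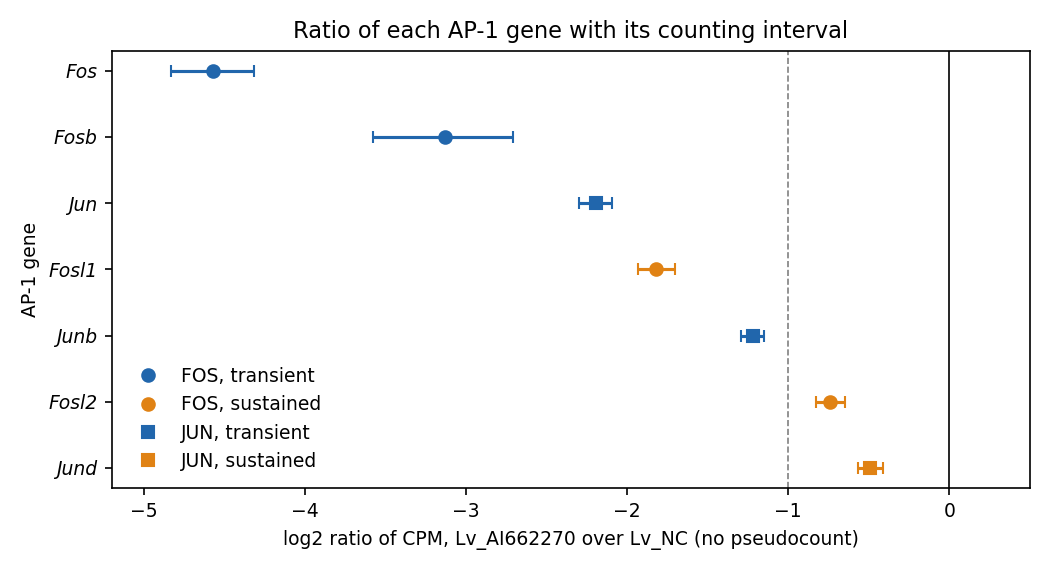
Log2 ratio of CPM without a pseudocount, Lv_AI662270 over Lv_NC, for each AP-1 gene, with 95% exact counting intervals. Circles are FOS genes, squares JUN genes, blue transient and orange sustained members, and the dashed line is a 2-fold lower level. Fosl1 is the orange point that lies to the left of a blue one, Junb.

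**Figure D3:**
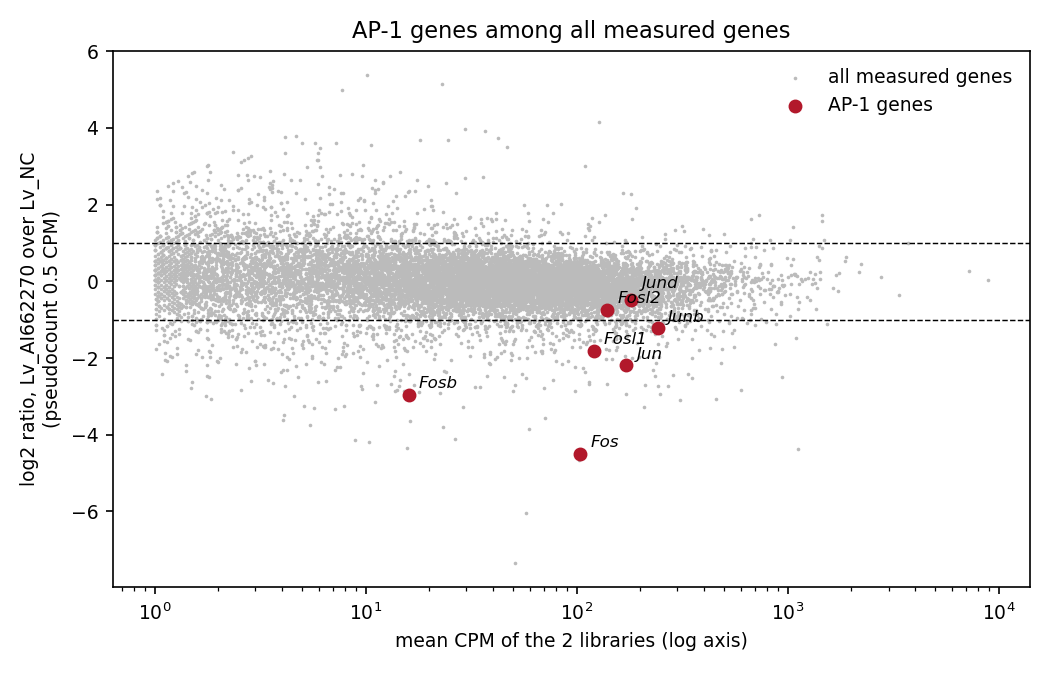
Log2 ratio (pseudocount 0.5 CPM), Lv_AI662270 over Lv_NC, against mean CPM of both libraries on a log axis for 13268 measured genes (grey) and the 7 AP-1 genes (red), with dashed lines at 2-fold. The 5 members past the rule lie on the lower side of the cloud, and Fosl2 and Jund lie inside it.

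The members were then compared with each other within the libraries, by odds ratios of their counts, which do not depend on library scaling or gene length. Of 21 pairs, 21 had an interval without 1, so every pair differed beyond counting error, which is the only error these intervals cover. The order from the most to the least lowered was Fos, Fosb, Jun, Fosl1, Junb, Fosl2 and Jund. The counts of Fos per count of Fosb were 2.57 in Lv_AI662270 and 6.97 in Lv_NC, 2.71-fold lower (1.89 to 3.84). Jun per Fosl1 was 1.15 in Lv_AI662270 and 1.501 in Lv_NC, 1.30-fold lower (1.17 to 1.44), and Fosl2 per Jund was 0.69 in Lv_AI662270 and 0.82 in Lv_NC, 1.19-fold lower (1.09 to 1.29). Jun with Fosl1 and Fosl2 with Jund were the closest neighbours in the order, and Fos with Fosb were the neighbours furthest apart. The extremes, Fos against Jund, differed by 16.9-fold.

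Transient members had 3398 counts in Lv_AI662270 and 12893 in Lv_NC, and sustained members had 4787 in Lv_AI662270 and 8690 in Lv_NC. There were thus 0.71 transient counts per sustained count in Lv_AI662270 and 1.48 in Lv_NC, 2.09-fold lower (1.98 to 2.20). The size of the difference depended on the grouping. It was 1.66-fold (1.58 to 1.75) without Fos, 1.56-fold (1.48 to 1.65) with Jun counted as sustained and 3.47-fold (3.24 to 3.72) with Junb counted as sustained. The FOS genes against the JUN genes gave 0.47 counts per count in Lv_AI662270 and 0.71 in Lv_NC, 1.498-fold lower (1.42 to 1.58). Sums of counts give longer genes more weight, so these group ratios, unlike those of pairs, depend on gene length. Fosl2, with a deposited length of 9680 bases, held 1622 of the 2631 FOS counts in Lv_AI662270 and 2639 of 8960 in Lv_NC.

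Per kilobase of the deposited gene length, the make-up of the family differed between the libraries. Jund had the highest level per length in Lv_AI662270, with 41.2% of the summed per-kilobase level, against 21.8% in Lv_NC. Junb led in Lv_NC with 25.4%, and had 28.9% in Lv_AI662270. Fos made up 1.64% in Lv_AI662270 and 14.7% in Lv_NC. For Jun the share was 8.81% in Lv_AI662270 and 15.2% in Lv_NC, and for Fosl1 14.3% in Lv_AI662270 and 18.9% in Lv_NC. Fosl2 had 4.93% in Lv_AI662270 and 3.10% in Lv_NC. Fosb made up 0.24% in Lv_AI662270 and 0.79% in Lv_NC. All FOS genes together held 21.1% in Lv_AI662270 and 37.5% in Lv_NC. As a share of the family's counts without length, the FOS genes held 32.1% (31.1 to 33.2) in Lv_AI662270 and 41.5% (40.9 to 42.2) in Lv_NC, with exact binomial intervals. The per-length levels of Fosb and Fosl2 depend most on the length used, since their deposited lengths of 6243 and 9680 bases exceed their longest coding transcripts of 3782 and 6537 bases.

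**Figure D4:**
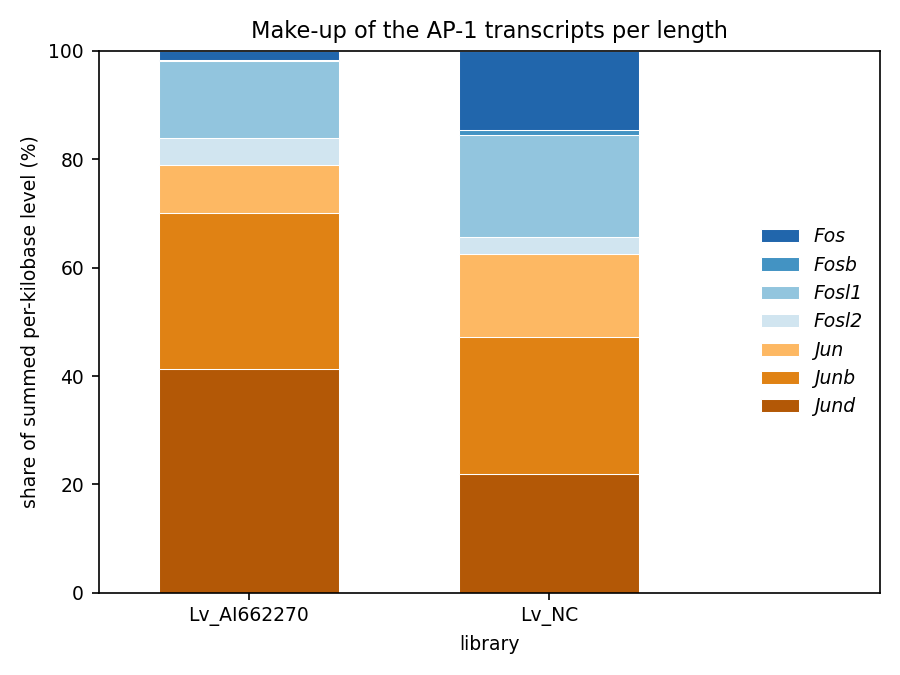
Share of each AP-1 gene in the summed level per kilobase of deposited gene length, in percent, in the Lv_AI662270 library (left) and the Lv_NC library (right). Orange shades are JUN genes and blue shades FOS genes, and the dark blue Fos segment is 1.64% on the left and 14.7% on the right.

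The genes nearest to Fos in their ratio were sought among genes averaging 50 CPM or more. Unnamed genes and those with symbols of the Gm or Rik series were left out. With 2 libraries, likeness is the closeness of 1 log2 ratio, and it says nothing more. The nearest was Egr1, a zinc finger factor of the immediate early class, at a log2 ratio of -4.36, with 1614 counts in Lv_AI662270 and 32451 in Lv_NC. Next came Gadd45a, a growth arrest gene, at -3.57, the antiviral gene Rsad2 at -3.27 and the immediate early gene Ier2 at -3.08. Among the genes searched, only Egr1 was within 0.5 of Fos on that scale.

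Partners that form dimers with FOS or JUN proteins were often lower as well. Of 15 listed bZIP partners 12 were measured. Of these, 6 were lower and 1 higher, against 5.72% lower and 5.59% higher among all measured genes. Their median log2 ratio was -0.84. Atf3, a stress-induced partner of JUN, had 890 counts in Lv_AI662270 and 6675 in Lv_NC and was 7.69-fold lower (7.17 to 8.25). Maff, a small MAF protein without a transactivation domain, with 835 counts in Lv_AI662270 and 2456 in Lv_NC, stood 3.01-fold lower (2.79 to 3.26). Maf went the other way, with 124 counts in Lv_AI662270 and 5 in Lv_NC, 24.2-fold higher (10.1 to 75.8). Atf2, the classical partner of JUN at the longer site, had a log2 ratio of -0.42 and did not pass the rule. The list thus held members lower beyond 2-fold, 1 higher, and others within 2-fold.

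Next come the factors that act on AP-1 gene promoters. Of 12 transcriptional inputs, among them serum response factor, its ELK and MRTF partners, MEF2 and CREB1, 11 were measured and 0 passed the rule in either direction, against 5.72% lower and 5.59% higher among all measured genes, with a median log2 ratio of -0.39. At 1.5-fold 4 of the 11 were lower, against 14.3% of all measured genes. The most abundant by CPM were Atf1, a CREB relative, with 1698 counts in Lv_AI662270 and 2877 in Lv_NC (log2 ratio -0.79), and Stat3, a cytokine-activated factor, with 2511 counts in Lv_AI662270 and 1961 in Lv_NC (0.32). Srf itself had 834 counts in Lv_AI662270 and 1294 in Lv_NC, a log2 ratio of -0.66. Of 18 genes of the MAP kinase cascades upstream of AP-1, 17 were measured and 0 passed, against the same 5.72% lower and 5.59% higher, with a median of 0.04. In lists this short a count of 0 lies near the share over all measured genes. Mapk14, which encodes p38 alpha, had a log2 ratio of 0.13. Transcript levels do not report the activity of these kinases.

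Of 10 factors that act on the stability of AP-1 messages or proteins, all measured, 2 were lower and 0 higher, against 5.72% lower and 5.59% higher among all measured genes. Their median log2 ratio was -0.41. Zfp36, which encodes tristetraprolin, a protein that binds ATTTA-containing sites and is itself an early response gene, had 116 counts in Lv_AI662270 and 619 in Lv_NC, 5.47-fold lower (4.48 to 6.73). Its relative Zfp36l2, with 1492 counts in Lv_AI662270 and 3390 in Lv_NC, stood 2.33-fold lower (2.19 to 2.48). The ubiquitin ligase genes Fbxw7, Cop1 and Itch did not pass the rule, with log2 ratios of -0.45, -0.20 and -0.38.

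Of 20 genes commonly given as AP-1 targets, 16 were measured. Among them 3 were lower and 1 was higher, against 5.72% lower and 5.59% higher among all measured genes. The median log2 ratio was -0.03. Hbegf, an EGF receptor ligand gene, had 548 counts in Lv_AI662270 and 2786 in Lv_NC, 5.21-fold lower (4.75 to 5.72). The urokinase gene Plau had 539 counts in Lv_AI662270 and 2240 in Lv_NC, 4.26-fold lower (3.88 to 4.69). Its receptor gene Plaur had 468 in Lv_AI662270 and 1621 in Lv_NC, 3.55-fold lower (3.20 to 3.94). Vegfd, a lymphangiogenic growth factor gene, had 137 counts in Lv_AI662270 and 15 in Lv_NC, 8.91-fold higher (5.22 to 16.4). Ccnd1, Cd44 and Tgfb1 had log2 ratios of -0.33, 0.09 and 0.27 and did not pass. The median of this list lay close to that of all measured genes, while the share lower was 18.8%, against 5.72% of all.

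**Figure D5:**
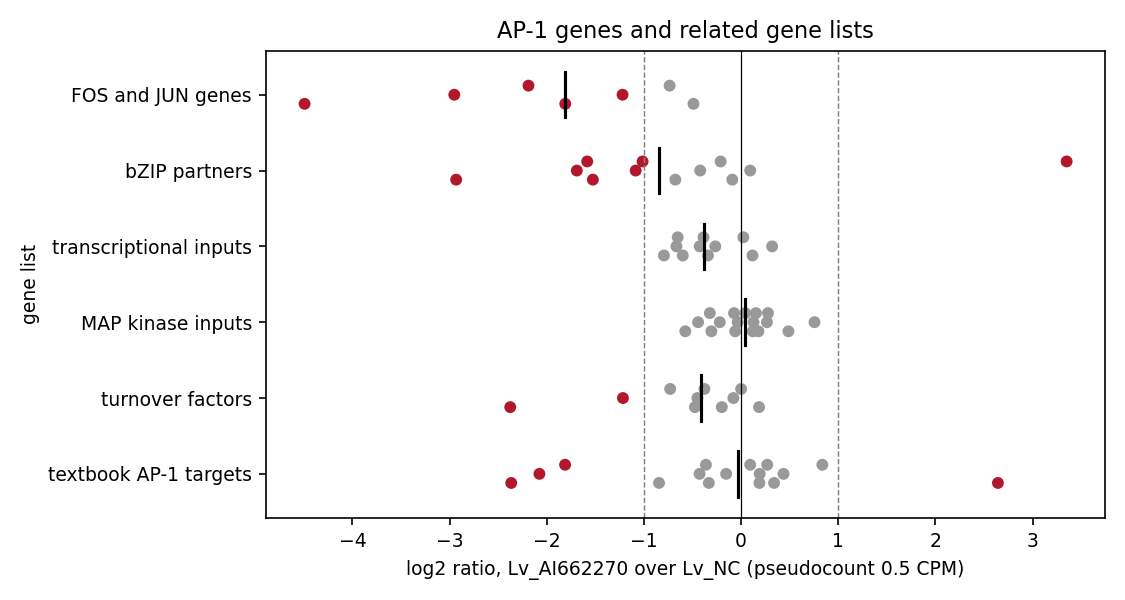
Log2 ratio (pseudocount 0.5 CPM), Lv_AI662270 over Lv_NC, of the AP-1 genes and of the measured members of 5 related lists. Each point is a gene, red where it passed the size rule, black bars are medians, and dashed lines mark 2-fold. Medians run from -1.81 for the AP-1 genes to 0.04 for the MAP kinase inputs.

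In the authors' deposited table, 4 of the 7 members were in the list of 897 genes with an adjusted p-value under 0.05, against 4.34% of the 20667 genes they tested. These were Fos, Fosb, Jun and Fosl1, with log2 fold changes in the authors' deposited table of -4.57, -3.13, -2.20 and -1.82. Junb, Fosl2 and Jund were not in it, at -1.22, -0.74 and -0.49 in the authors' deposited table. Those p-values compare 1 library with 1 library, so they carry no spread between cultures.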

How the data were processed

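RNA of 2 sublines was sequenced, 1 library per group. CASAVA 1.4, TopHat2 and build mm10 are named in the submitters' processing notes, while counter and strandedness are not given in the sources. The deposited counts are whole reads per gene with a different total per library, not normalized by the authors. The deposited FPKM columns divide counts by gene length and by 15391166 in both libraries. Signal columns, in which the authors brought counts to a shared library size, are also deposited and were not used. The authors' log2 fold changes and p-values are quoted from the deposited tables, per the file headers. The control column is named Lv_Con in the tables and was read as the library labelled Lv_NC.

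Counts were scaled by TMM (edgeR 4.0.16, R 4.3.3), with factors of 1.03 for Lv_AI662270 and 0.967 for Lv_NC. Log2 ratios took a pseudocount of 0.5 CPM, which understates the change of low genes. Folds are CPM ratios without it. Intervals are exact Clopper-Pearson (ratios), conditional exact (odds ratios) or exact Poisson (levels) at 95%, in Python 3.11.15 with scipy 1.17.1. They cover counting error only, since each group held 1 library, and they take reads as independent. No molecular identifiers were used, so that independence could not be checked. No p-value was computed. The size rule was also tried on simulated counts. These held counting error only, so that trial does not bear on differences between cultures. Where rows shared a symbol, the one with most counts was taken. The members, lists and rules were chosen with earlier results of these data known. Named genes are the 7 members, AI662270 and the 4 genes nearest to Fos in log2 ratio, within the search limits given above. Per list they are the 4 largest changes that passed the rule (fewer where fewer passed), or else the 2 most abundant genes. Some genes that this rule picks are not reported here. Srf, Atf2, the ubiquitin ligase genes, Ccnd1, Cd44, Tgfb1, single cell type markers and members' neighbours were named beside these after their values were seen. So were the bZIP genes, Mmp10 and Mmp9 of the closing section. Alternatives were 3 other scalings (one by DESeq2 1.42.0 size factors), pseudocounts of 0.1 and 2 CPM, dropping the level filter or raising it to 5 CPM, thresholds of 1.5-fold and 3-fold, the FPKM columns, and other groupings of members.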

Additional observations from a re-analysis of the deposited data

How the results depend on the processing

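Under 10 alternatives of scaling, pseudocount, filter, threshold and unit, the number of AP-1 genes lower was 5, except for 6 at 1.5-fold, where Fosl2 passed, and 4 at 3-fold, where Junb did not. None was higher under these 10. Log2 ratios stayed within -4.56 to -4.28 for Fos and -0.49 to -0.39 for Jund, and that of Fosb, the member with the fewest counts, within -3.09 to -2.29. The log2 ratio of the summed family was -1.43, and was -1.34 with total counts, -1.37 with upper quartile scaling and -1.51 without Junb. The median of all measured genes moved by under 0.1 under every scaling. The odds ratio of transient over sustained counts was 0.478, and was 0.288 with Junb counted as sustained, 0.640 with Jun counted as sustained, 0.602 without Fos and, in a grouping chosen after seeing the data, 0.396 with Fosl1 counted as transient. The FOS share of the family, 21.1% in Lv_AI662270 and 37.5% in Lv_NC per deposited length, was 32.1% in Lv_AI662270 and 41.5% in Lv_NC without length. It was 36.4% in Lv_NC with the longest coding transcript, also chosen after seeing the data. The 5 related lists held 12, 11, 17, 10 and 16 measured genes. Over them 11 genes were lower and 2 higher, against 5.72% lower and 5.59% higher among all measured genes. At 1.5-fold 18 were lower and 4 higher, against 14.3% and 12.9% of all measured genes. At 3-fold 6 were lower and 2 higher, against 1.97% and 1.86%. With the level filter at 5 CPM 0 were higher, since Maf and Vegfd are below that level. Of all 13268 measured genes, 1893 were lower and 1705 higher at 1.5-fold. At 3-fold 262 were lower and 247 higher, and at 2-fold 759 were lower and 742 higher. A pseudocount of 2 CPM left 573 lower and 400 higher. A filter at 5 CPM left 572 lower and 391 higher of 10902 genes. On FPKM 556 were lower and 486 higher. No paired analysis was possible because each group held 1 library. Leaving out a library was not possible for the same reason, and no spread between cultures could be measured.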

Other observations

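Besides the FOS and JUN genes, the authors' family column marks 41 other genes as bZIP. Of these, 33 were measured, 11 were lower and 4 higher by the size rule, against 5.72% lower and 5.59% higher among all measured genes, and the median log2 ratio was -0.54. This set contains the bZIP partners already described. Among those not in that list, the lower ones included Nfil3, a repressor of circadian and cytokine genes, with 483 counts in Lv_AI662270 and 2116 in Lv_NC. They also included Ddit3, which encodes the stress factor CHOP, with 324 counts in Lv_AI662270 and 1175 in Lv_NC. Atf4, the central factor of the amino acid response, had 6642 in Lv_AI662270 and 20022 in Lv_NC. Nfe2l1, Atf6 and Atf4 were among the abundant lower genes, at log2 ratios of -1.02, -1.18 and -1.63. The higher genes besides Maf were Creb3l1 and the genes Tef and Dbp, clock-output factors of the PAR bZIP group, with 1275 counts in Lv_AI662270 and 544 in Lv_NC for Tef and 69 in Lv_AI662270 and 29 in Lv_NC for Dbp. Creb3l1, a membrane-bound factor of secretory cells, had 183 counts in Lv_AI662270 and 80 in Lv_NC. Mmp10, a listed AP-1 target below the level that counted as measured, had 0 counts in Lv_AI662270 and 20 in Lv_NC. Mmp9, also a listed target below that level, went the other way, with 19 counts in Lv_AI662270 and 5 in Lv_NC.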
